A study of Mus musculus with 28 samples.

Results

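The genes described here are named for protein subunits of the mitochondrial ribosome. They were taken as every row of the nascent RNA tables whose symbol starts with Mrpl or Mrps followed by a digit, which gave 78 of 24984 genes. Of these, 49 carry a large subunit name (Mrpl) and 29 a small subunit name (Mrps). By the list used here, 46 have a counterpart in the bacterial ribosome and the others have none. Membership rests on the symbol alone.

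The mitochondrial ribosome translates the few messenger RNAs encoded by mitochondrial DNA, which specify core subunits of the respiratory chain and of ATP synthase. Its ribosomal RNAs come from the mitochondrial genome, whereas all of its proteins are encoded in the nucleus, transcribed by RNA polymerase II (Pol II), made in the cytosol and imported. The genes are scattered over many chromosomes, and the small subunit reads the messenger RNA while the large subunit joins the amino acids.

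The study asked what elongin A (EloA), a factor that raises the elongation rate of Pol II in vitro and also takes part in ubiquitin ligase complexes, does for transcription in mouse embryonic stem cells (mESCs). Transcription was followed by Bru-seq, in which RNA made during a short pulse of 5-bromouridine (BrU) is immunopurified and sequenced. WT and EloA null CCE28 mESCs were compared in 3 conditions, with 2 libraries per genotype and condition and 12 in all. In steady state, cells received 2 mM BrU for 10 min. For recovery, cells were first held for 60 min in 1 µM flavopiridol, an inhibitor of the kinase that releases paused Pol II, and then washed and given 2 mM BrU for 5 min or 10 min. Both genotypes were grown with LIF and 2 kinase inhibitors on feeder fibroblasts that were removed by plating. The sources used here do not say how many clones the EloA null line stands for. The treatment text of the labels names CJ7 instead of CCE28 cells. The first steady-state library titled EloA null is called wild type in its genotype field, and its title was followed here.

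Library sizes worked out from the steps between low RPKM values ran from 9857527 to 28547354 reads. Eloa itself had more signal without overlap in the EloA null group, with 1.18 and 1.16 RPKM in WT against 1.96 and 1.89 RPKM in steady state, and the position of the deletion relative to the counted bases is not given in the sources used here. These libraries are therefore named by their labels and called null libraries from here on. All 10 markers of embryonic stem cells passed the expression limit in each table, with a WT median of 11.8 RPKM in steady state. None of 12 feeder fibroblast markers did so in steady state, where their summed level lay between 1.37 and 1.97 RPKM in the 4 libraries. Their sum was 1.75 and 1.54 RPKM in WT against 1.40 and 0.770 RPKM in the null libraries at 5 min, and 3.10 and 2.19 RPKM against 2.40 and 1.61 RPKM at 10 min. Of the 12, Col1a1, a collagen chain of fibroblasts, passed the limit in the recoveries and was lower without overlap in the null libraries at 5 min (ratio 0.636) and at 10 min (ratio 0.716). Genes on chromosome 14 stood apart between genotypes in every table, and their values are given beside the 3 mitochondrial ribosomal protein genes on that chromosome.

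In steady state the mitochondrial ribosomal protein genes were transcribed at moderate and rather even levels. The limit for testing was a mean above 0.5 RPKM in either genotype, a unit that divides reads by the counted length and the library size, so that levels can be compared between genes. It was passed by 76 of the 78 genes in steady state, the exceptions being Mrps12, whose product lies in the decoding centre of the small subunit, and Mrps23. Their mean WT levels were 0.241 and 0.334 RPKM. Among the genes tested, the WT level ranged from 0.413 to 8.50 RPKM with a median of 2.20 RPKM, and the middle 50% lay between 1.57 and 2.93 RPKM. The median over all 11347 genes tested was 1.80 RPKM. By contrast, the WT median of the cytosolic ribosomal protein genes was 17.4 RPKM.

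The highest level was that of Mrpl17, a large subunit protein with a bacterial counterpart, at 8.68 and 8.32 RPKM in WT and 10.8 and 10.5 RPKM in the null libraries. Mrpl12, which forms the flexible stalk of the large subunit where translation factors bind, followed with 5.81 and 6.09 RPKM in WT and 5.39 and 6.46 RPKM in the null libraries. The genotypes overlapped for Mrpl12 and did not for Mrpl17. Mrps31, a small subunit protein found only in mitochondria, had 5.62 and 4.93 RPKM in WT. Mrps2, the counterpart of a bacterial small subunit protein, had 5.42 and 4.51 RPKM. Mrps30 reached 4.80 and 4.36 RPKM. In WT the libraries of Mrpl17 and of Mrpl12 did not overlap with those of the next gene, while those of Mrps2 overlapped with those of Mrps31 above it and of Mrps30 below it. Both libraries of Mrps31 lay above both of Mrps30.

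**Figure D1:**
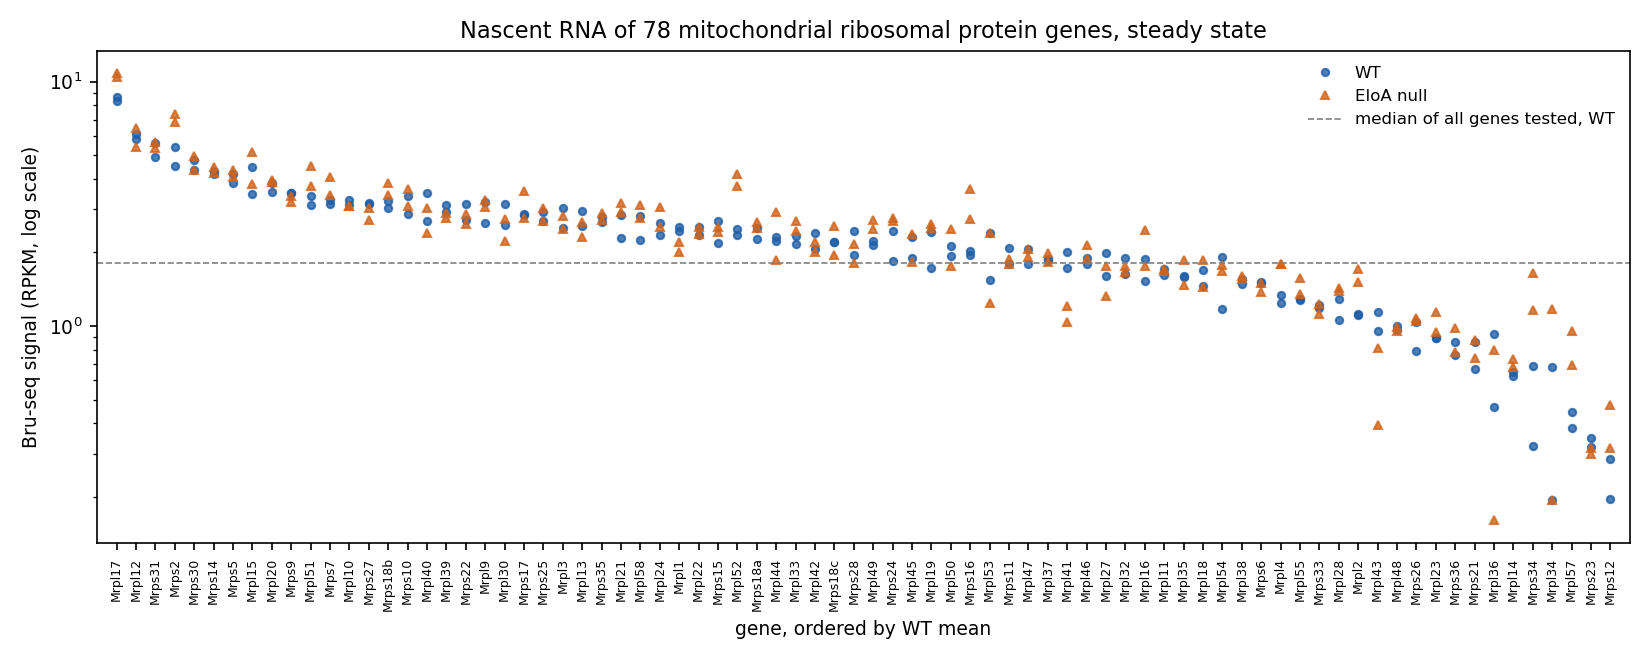
Bru-seq signal (RPKM, log scale) of the 78 genes in steady state, ordered by their WT mean, with circles for the 2 WT libraries and triangles for the 2 null libraries. The dashed line is the WT median of all genes tested, 1.80 RPKM, and most genes lie near it while Mrps12 and Mrps23 have the lowest WT means.

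At the low end stood Mrpl57 at 0.445 and 0.381 RPKM in WT, Mrpl34 at 0.682 and 0.195 RPKM, Mrps34 at 0.322 and 0.689 RPKM, Mrpl14 at 0.624 and 0.649 RPKM, and Mrpl36 at 0.465 and 0.928 RPKM. Apart from Mrpl14, each of these values rested on at most 7 reads. The recovered reads came out whole for all 78 genes in all 12 libraries, within a tolerance of 0.1 read, when the counted length was the summed introns with the exon base on each side. The genes had a median intron length of 5615 bases against 15282 bases for all genes tested in steady state, so short genes of this family had few counted bases. Reads per library ranged from 1 to 8274 in steady state with a median of 296 per gene, and 8 genes tested there had a mean of under 20 reads.

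The 3 paralogs of the bacterial small subunit protein S18 lie apart, Mrps18a and Mrps18b on chromosome 17 and Mrps18c on chromosome 5, and only uniquely aligned reads were counted. Mrps18a had 2.53 and 2.26 RPKM in WT, Mrps18b 3.05 and 3.24 RPKM, and Mrps18c 2.20 and 2.21 RPKM. Mrps18b was the highest of the 3 in both WT libraries, and Mrps18a and Mrps18c lay next to each other. Mrpl58, also known as Ict1, a peptidyl-tRNA hydrolase that is built into the large subunit and frees stalled ribosomes, had 2.81 and 2.24 RPKM.

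After removal of flavopiridol the genes of the mitochondrial ribosome had more of their steady-state signal than most genes. Relative to the steady state of the same genotype, the median over 74 genes was 1.01 at 5 min and 1.91 at 10 min in WT, against 0.632 and 1.03 over 10763 genes. In the null libraries it was 0.944 and 1.94 over 75 genes, against 0.560 and 1.02 over 11094 genes. At 10 min 66 of the 74 genes exceeded their WT steady-state value, which was true of 51.3% of all genes. The median over the members in the 2 WT libraries was 1.02 and 0.924 at 5 min and 1.85 and 1.91 at 10 min. The 3 tables were normalized separately, with no stated scaling between them, and the pulse at 5 min was shorter, so these ratios are a description with no test. With the same limit, the WT median at 10 min also lay above steady state in other mitochondrial lists described below. Assembly factors and ribosomal proteins under other names went from 1.86 to 3.47 RPKM, over 22 genes each time. Translation factors had 1.77 RPKM over 12 genes and 4.18 RPKM over 11. Genes of mitochondrial transcription and messenger RNA binding had 2.81 RPKM over 9 and 4.91 RPKM over 8. The cytosolic ribosomal protein genes had 17.4 and 17.7 RPKM.

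The ratio differed between classes of gene length. The genes had a median span of 7690 bases in steady state, against 18942 bases for all genes tested. In WT at 10 min, the median ratio was 1.46 for 22 genes under 5 kb, 2.42 for 30 genes of 5 to 10 kb, 2.00 for 12 genes of 10 to 20 kb and 1.17 for 10 genes over 20 kb. All genes in the same classes had medians of 1.03, 1.64, 1.70 and 0.793, so that the mitochondrial ribosomal protein genes lay above their class in each. Spearman's correlation between the ratio and the span in WT at 10 min was 0.06 over all 74 genes, and 0.37, 0.06, -0.01 and -0.78 within the classes from short to long. Over all genes it was -0.30, with -0.43 in the longest class. At 5 min it was -0.24 over the 74 genes and 0.04 in the longest class. All points come from the same libraries, so these values are a description.

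**Figure D2:**
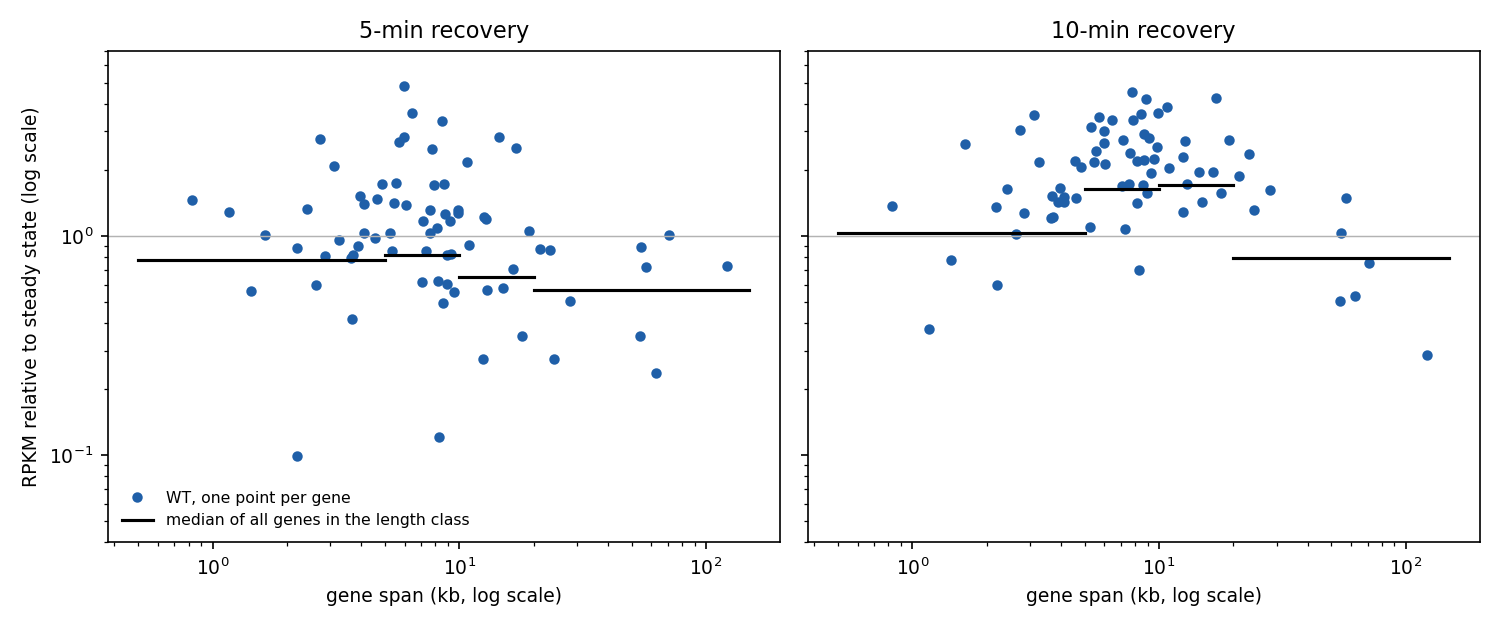
WT RPKM relative to steady state (log scale) against gene span (kb, log scale) at 5 min and 10 min after removal of flavopiridol, with 1 point per gene above 0.5 RPKM in steady state and black lines for the median of all genes in each length class. At 10 min most genes between 5 and 20 kb lie above 1, and the longest lie below it.

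Values by library are given for the 3 longest genes of the family. Mrps28, spanning 121712 bases (GRCm38.p6 chr3:8802146-8923857, minus strand), had 1.95 and 2.45 RPKM in WT steady state, 1.45 and 1.76 RPKM at 5 min and 0.614 and 0.648 RPKM at 10 min. Mrps27, spanning 70796 bases and encoding a pentatricopeptide repeat protein, had 3.15 and 3.17 RPKM, then 3.54 and 2.88 RPKM, then 2.45 and 2.32 RPKM. Mrpl48, spanning 62523 bases, had 0.998 and 0.965 RPKM, then 0.281 and 0.187 RPKM, then 0.584 and 0.462 RPKM. At 10 min all 3 stayed below their steady-state values in both WT libraries, and at 5 min Mrps27 did not.

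Shorter genes covered a wide range. Mrpl20, with a span of 5954 bases, went from 3.84 and 3.54 RPKM in WT steady state to 16.1 and 19.4 RPKM at 5 min, the highest ratio of the family at that time (4.82), and had 10.1 and 12.3 RPKM at 10 min. Mrpl46 had the highest ratio at 10 min (4.55), from 1.79 and 1.89 RPKM to 8.82 and 7.95 RPKM. In the other direction, Mrpl54 had 1.91 and 1.17 RPKM in steady state, 0.0625 and 0.243 RPKM at 5 min from 1 and 5 reads, and 1.05 and 0.783 RPKM at 10 min. Mrpl23 went from 0.890 and 0.894 RPKM to 0.115 and 0.101 RPKM and then 0.753 and 0.489 RPKM. These 4 genes lie between 2205 and 8281 bases in span, and they did not keep a common order with length. Mrpl46 was chosen after its values were seen.

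Between genotypes in steady state, no gene of the family passed the limma test across all genes, and the differences were small. The data are from bulk cells, so a change in the cells present and a change in RNA per cell cannot be told apart. At an adjusted p under 0.05, 0 of the 76 genes were called and 0% of all 11347 genes, with 10 of the 76 and 2083 of all genes at an unadjusted p under 0.05. The lowest adjusted p of the family was 0.106, for Mrpl52. The median difference, on the scale of log2(RPKM + 0.1) used throughout, was 0.05 against 0.03 for all genes, and it was -0.01 with each library centred on its median. The median level over the genes tested was 2.32 and 2.20 RPKM in WT and 2.52 and 2.27 RPKM in the null libraries, in which the lower null library lay within the WT range. Both null libraries were above both WT libraries for 23 genes, against a background of 32% of all genes, and below both for 8, against 21.4%. With libraries centred on their medians the split was 15 above and 11 below, against 26.3% and 30.4% of all genes. A positive difference was then found for 37 of 76 genes instead of 52, against 45.7% instead of 56.2% of all genes.

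Past 1.5-fold in mean RPKM in the null libraries were 5 genes on the high side, with a background of 7.21%, and 2 lower, with a background of 2.1%. Those higher were Mrps34 (2.79-fold), Mrpl57 (1.99-fold), Mrpl52 (1.64-fold), Mrps16 (1.61-fold) and Mrpl34 (1.56-fold, with overlapping libraries), and those lower were Mrpl43 (ratio 0.577) and Mrpl41 (ratio 0.601). Of these 7 genes, only Mrpl52 and Mrps16 had a mean of 20 or more reads.

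With genes under a mean of 20 reads left out of the same fit, 5 of the 68 remaining genes of the family passed, among 637 of 10415 genes, all of them higher in the null libraries. They were Mrpl52 (adjusted p = 0.0142), Mrps16 (0.0370), Mrpl2 (0.0371), Mrpl4 (0.0423) and Mrps2 (0.0453), with the limma test named above. Mrpl2, whose bacterial counterpart lies close to the centre where peptide bonds form, had 1.11 and 1.12 RPKM in WT and 1.52 and 1.71 RPKM in the null libraries, a log2 difference of 0.50 ± 0.11 (SE). Mrpl4 had 1.34 and 1.24 RPKM against 1.80 and 1.80 RPKM. Mrps2 had 5.42 and 4.51 RPKM against 6.86 and 7.41 RPKM. The libraries of the genotypes did not overlap for any of the 5 genes. Mrpl4 was chosen after its values were seen.

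During the 5-min recovery the differences were small, and 38 of 74 genes had a positive one, against 40.6% of all genes. The limma test called 0 of 74 genes and 0% of all 8985 genes, with 2 of the 74 and 846 of all genes at an unadjusted p under 0.05, and a lowest adjusted p of 0.403. The median log2 difference was 0.00 against -0.06 over all genes. Both null libraries lay above both WT libraries for 11 genes, against a background of 15.4%, and below both for 7, against 25%. With libraries centred on their medians, 52 of 74 were positive, against 51% of all genes, with a median of 0.07. The split was then 17 above and 5 below, against 21.3% and 20.3%. With the GC trend removed 51 of 74 were positive, 15 above and 6 below, with a median of 0.07. Over all 8985 genes 4374 were then positive, 1883 above and 1957 below, with a median of -0.008. The feeder markers, which were lower in the null libraries here, are given above, and their part was not tested. Past 1.5-fold were 4 genes higher (background 5.4%) and 4 lower (background 6.72%). Not tested here for lack of signal were Mrpl23, Mrpl34, Mrpl48 and Mrpl54.

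Of these 8 genes at 5 min, only Mrpl52, Mrps16 and Mrpl27 rested on 20 or more reads on average. Mrpl27, whose bacterial counterpart reaches into the peptidyl transferase centre, had 1.46 and 0.793 RPKM in WT and 0.647 and 0.592 RPKM in the null libraries, a ratio of 0.551 with a log2 difference of -0.71 ± 0.30 (SE). The WT libraries of Mrpl27 differed from each other by more than the lower WT library differed from the others. Next lowest by ratio was Mrps22, a small subunit protein of the mitochondrial ribosome alone, with 2.17 and 1.16 RPKM against 1.21 and 1.18 RPKM (ratio 0.721), where the genotypes overlapped. The most transcribed gene at 5 min, Mrpl20, had 16.1 and 19.4 RPKM in WT and 22.4 and 27.4 RPKM in the null libraries, which did not overlap (adjusted p = 0.550 with limma).

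At the 10-min recovery more of the genes were higher in the null libraries. The limma test called 0 of 78 genes and 0% of all 10241 genes, with 19 of the 78 and 2098 of all genes at an unadjusted p under 0.05. The lowest adjusted p was 0.0982, for Mrps34, which rested on 1 to 7 reads per library. The log2 difference was positive for 60 of the 78 genes (76.9%, against 58.5% of all genes), with a median of 0.17 against 0.06 over all genes. With libraries centred on their medians, 43 of 78 were positive, against 45.1% of all genes. The median was then 0.07, against -0.04 over all genes. With the trend with GC content removed the median was 0.04, against -0.009 over all genes. Then 47 of 78 were positive, with 26 above and 10 below without overlap. Over all 10241 genes 4967 were then positive, 2735 above and 2779 below. The median level was 4.29 and 3.91 RPKM in WT and 5.14 and 4.53 RPKM in the null libraries, without overlap.

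Both null libraries were above both WT libraries for 32 of the 78 genes, with a background of 33.5%, and below both for 8, with a background of 21.8%. Centred on the medians, the split was 28 above and 14 below, against 25.8% and 31.3% of all genes. Past 1.5-fold were 12 genes higher, with a background of 9.41%, and 1 lower, with a background of 3.01%. With libraries centred on their medians the numbers past 1.5-fold were 9 and 2, against 6.9% and 3.97% of all genes. The 12 were Mrps34, Mrpl53, Mrpl52, Mrps16, Mrpl41, Mrpl55, Mrpl49, Mrpl34, Mrpl54, Mrpl57, Mrpl2 and Mrpl23, and the gene lower was Mrpl36, a short large subunit protein with a bacterial counterpart. The libraries of Mrpl34 and Mrpl57 overlapped between genotypes.

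Among the genes with 20 or more reads on average, 3 of 71 passed the limma test at 10 min, beside 413 of 9383 genes, and all 3 were higher in the null libraries. They were Mrpl52 (adjusted p = 0.0261), Mrps16 (0.0353) and Mrpl49 (0.0399). Mrpl49, a protein of the mitochondrial large subunit with no bacterial counterpart, had 3.29 and 2.94 RPKM in WT and 5.87 and 4.70 RPKM in the null libraries, a log2 difference of 0.74 ± 0.14 (SE). In steady state it had 2.14 and 2.23 RPKM against 2.50 and 2.72 RPKM.

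Mrpl55 and Mrpl54, also without a bacterial counterpart by the list used here, showed separated libraries at 10 min. Mrpl55 had 1.35 and 1.76 RPKM in WT and 2.95 and 2.39 RPKM in the null libraries. Mrpl54 had 1.05 and 0.783 RPKM against 1.64 and 1.40 RPKM. Mrpl23 had 0.753 and 0.489 RPKM against 1.08 and 0.820 RPKM. None of the 3 passed the limma test (adjusted p = 0.160, 0.173 and 0.296).

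**Figure D3:**
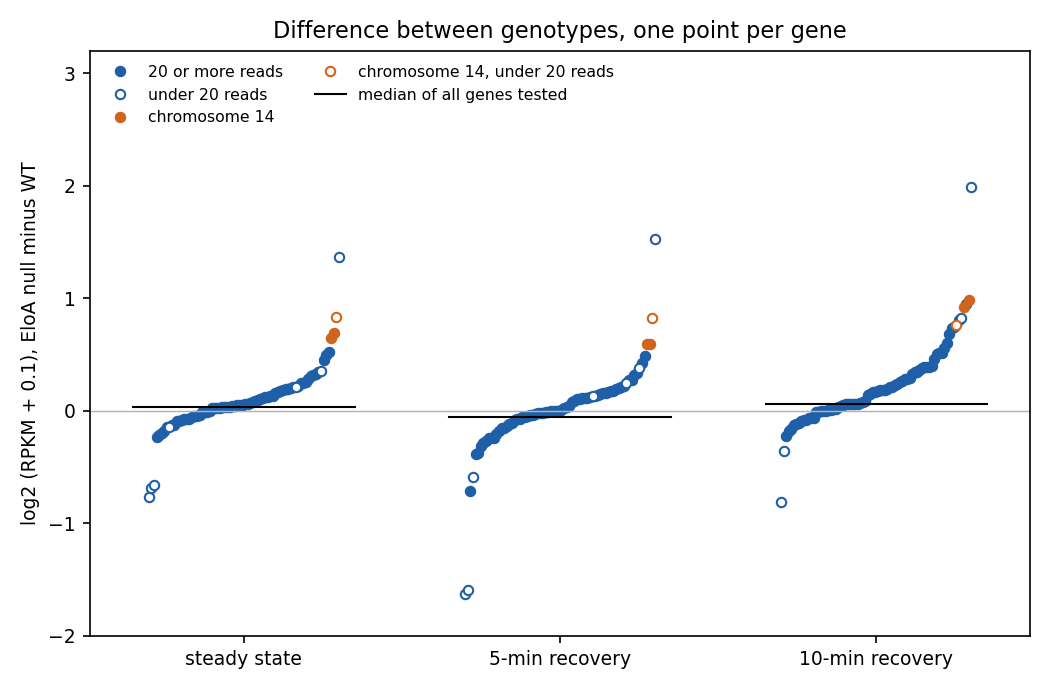
Difference between genotypes on the scale of log2(RPKM + 0.1), EloA null minus WT, for each gene tested in the 3 conditions, ordered within a condition, with open symbols for genes under a mean of 20 reads, orange for chromosome 14 and black bars for the median of all genes tested. Most genes lie within 0.5 of 0, the extremes are open symbols, and the 3 chromosome 14 genes lie at the upper end in each condition.

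Across the 3 conditions, 72 genes of the family were tested each time. Both null libraries were above both WT libraries in all 3 conditions for 5 of them, Mrpl17, Mrpl20, Mrpl52, Mrps16 and Mrps2, with a background of 8.79% of 8217 genes. They were below in all 3 for 2 genes, Mrpl1 and Mrps9, with a background of 10.1%. Mrpl1, the counterpart of the bacterial protein that forms a mobile stalk of the large subunit, spans 57230 bases and had 2.45 and 2.53 RPKM in WT steady state against 2.21 and 2.01 RPKM. At 10 min it had 3.75 and 3.65 RPKM against 3.07 and 3.24 RPKM. Mrps9, a small subunit protein spanning 54451 bases, had 3.51 and 3.51 RPKM in WT steady state and 3.40 and 3.22 RPKM in the null libraries. Neither passed the limma test in any condition (lowest adjusted p = 0.272). Mrps9 was chosen after its values were seen.

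In steady state and at 10 min, Mrpl52 and Mrps16 had the largest differences among the genes of the family with 20 or more reads on average, while at 5 min that of Mrpl27 was larger. Mrpl52 and Mrps16 are both on chromosome 14. Mrpl52, a large subunit protein of the mitochondrial ribosome alone (chr14:54426909-54429750, plus strand), had 2.49 and 2.35 RPKM in WT and 4.18 and 3.74 RPKM in the null libraries in steady state. At 5 min it had 1.83 and 2.07 RPKM against 2.99 and 2.99 RPKM, and at 10 min 3.53 and 2.66 RPKM against 6.16 and 6.16 RPKM. The libraries did not overlap in any condition, and the log2 differences were 0.69 ± 0.10 (SE), 0.59 ± 0.15 and 0.98 ± 0.16. Mrps16, a small subunit protein with a bacterial counterpart (chr14:20391222-20393634, minus strand), had 1.95 and 2.03 RPKM against 3.65 and 2.74 RPKM in steady state. It had 2.36 and 2.91 RPKM against 3.67 and 4.37 RPKM at 5 min, and 2.74 and 3.78 RPKM against 5.85 and 6.56 RPKM at 10 min. Its log2 differences were 0.64 ± 0.16 (SE), 0.59 ± 0.19 and 0.92 ± 0.18, again without overlap.

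**Figure D4:**
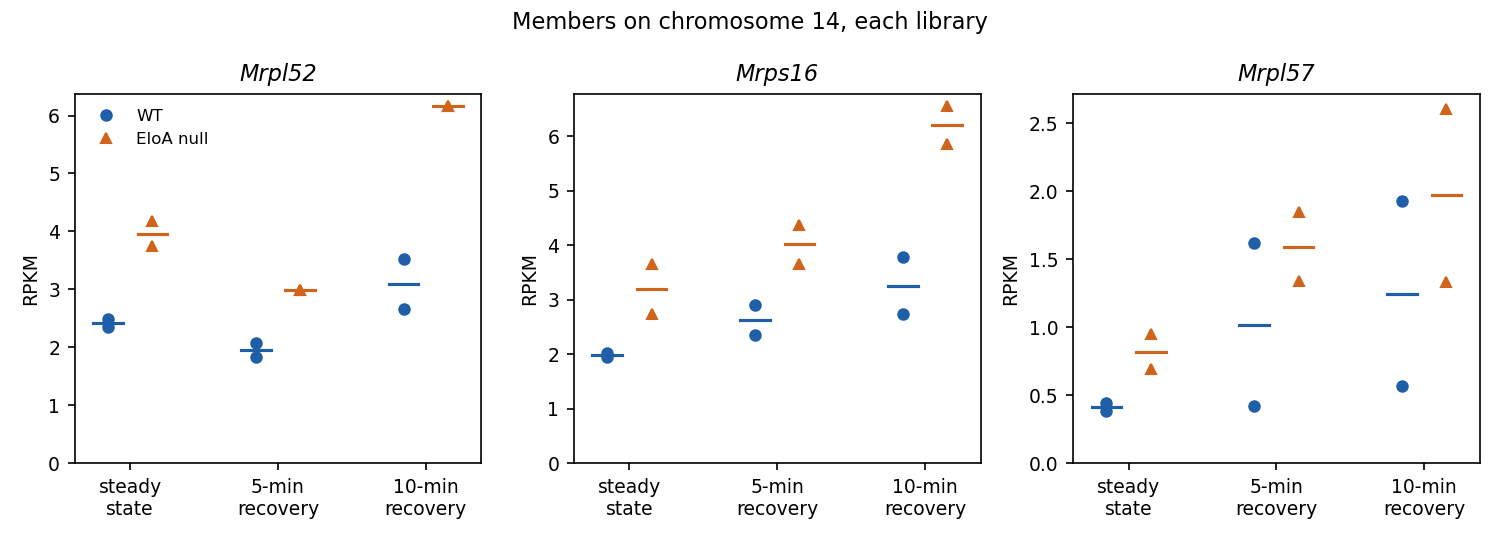
RPKM of Mrpl52, Mrps16 and Mrpl57 in each library by condition, with circles for WT, triangles for the null libraries and bars for the means of 2 libraries. For Mrpl52 and Mrps16 the triangles lie above the circles in every condition, whereas for Mrpl57 they overlap in both recoveries.

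Most genes of the chromosome differed in the same direction. Of 416 chromosome 14 genes tested in steady state, 386 (92.8%) had both null libraries above both WT libraries, with a median log2 ratio of 0.50. At 5 min it was 249 of 348 (71.6%) with a median of 0.46, and at 10 min 332 of 385 (86.2%) with a median of 0.51. The part of the chromosome in the values of Mrpl52, Mrps16 and Mrpl57 was not tested. Other genes of mitochondrial translation on this chromosome had the same direction in steady state. Chchd1, which encodes a small subunit protein under another name, had 1.35 and 1.33 RPKM in WT and 2.57 and 2.35 RPKM in the null libraries. Oxa1l, which inserts newly made proteins into the inner membrane, had 1.90 and 1.83 RPKM against 3.13 and 3.13 RPKM. Mtrf1, a release factor family member, had 0.837 and 0.809 RPKM against 1.25 and 1.20 RPKM. In the recoveries Chchd1 was lower at 5 min, with 1.63 and 1.66 RPKM against 1.35 and 1.43 RPKM, and higher at 10 min, with 1.38 and 1.40 RPKM against 3.84 and 3.95 RPKM. Oxa1l overlapped between genotypes at 5 min and had 5.52 and 4.05 RPKM against 8.92 and 7.49 RPKM at 10 min. Mtrf1 was below the limit for testing at 5 min and had 0.710 and 0.615 RPKM against 1.01 and 1.02 RPKM at 10 min.

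The 250 bases before the outermost annotated start are shown for Mrpl52 and Mrps16. These are the genes of the family on chromosome 14 with no divergent protein-coding gene starting within 1 kb. The bases shown are from RefSeq on GRCm38.p6, at chr14:54426659-54426908 on the plus strand and chr14:20393635-20393884 on the minus strand. They are read in the direction of transcription with the start at the right-hand end. Capitals mark matches to the short motifs described after them. The upstream bases of Mrpl57 lie within the divergent gene Ska3 and are not shown.
Mrpl52: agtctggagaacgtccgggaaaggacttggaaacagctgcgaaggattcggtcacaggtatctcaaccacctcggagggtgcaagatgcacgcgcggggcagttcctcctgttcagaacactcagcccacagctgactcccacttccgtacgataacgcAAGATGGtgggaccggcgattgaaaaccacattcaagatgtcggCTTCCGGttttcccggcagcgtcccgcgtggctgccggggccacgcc
Mrps16: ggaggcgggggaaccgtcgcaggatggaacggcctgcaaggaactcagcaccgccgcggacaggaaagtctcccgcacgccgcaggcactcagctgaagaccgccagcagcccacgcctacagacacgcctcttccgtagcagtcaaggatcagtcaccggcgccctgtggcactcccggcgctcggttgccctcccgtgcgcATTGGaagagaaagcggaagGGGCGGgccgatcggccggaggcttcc
In Mrpl52 the capitals are a YY1 match and, nearer the start, an ETS match on the reverse strand. In Mrps16 they are a CCAAT box on the reverse strand and an SP1 match.

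Promoter windows from 250 bases before to 50 after the start were found in RefSeq for 69 of the 78 genes. The others were Mrpl13, Mrpl15, Mrpl19, Mrpl38, Mrpl4, Mrpl54, Mrps28, Mrps34 and Mrps35. Motifs were searched as fixed letters on both strands, and matches of different motifs may overlap. The ETS core CCGGAAG was in 34.8% of the 69 windows, against 20.8% of 8459 windows of genes tested in steady state and 9.14% of all 27025 windows. AAGATGG, the core bound by YY1, was in 18.8%, against 8.07% and 6.46%. CGCATGCG, the core of the motif of NRF1, a factor known for nuclear genes of mitochondrial proteins, was in 7 windows or 10.1%, against 4.5% and 1.92%. The 7 were those of Mrpl9, Mrpl10, Mrpl17, Mrpl22, Mrpl32, Mrpl39 and Mrps18b, of which Mrpl9, Mrpl22, Mrpl32 and Mrpl39 are named for this match alone. GGGCGG, the SP1 motif, was in 49.3% against 65% and 35.9%, and CCAAT in 39.1% against 40% and 38%. The E-box CACGTG was in 7.25% against 11.1% and 7.24%, TATAAA in 5.8% against 6.83% and 14.2%, and the ERR motif TCAAGGTCA in 0 windows against 0.26% and 0.407%. A match is a description of the letters and does not show that a factor binds.

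Many of the genes share their start region with a neighbour. A protein-coding gene starting within 1 kb on the opposite strand was found for 29 of the 78 genes (37.2%), compared with 9.76% of 21787 protein-coding genes in the annotation. The annotation includes genes not transcribed in these cells, and the share among the genes tested here was not counted. In Mrps11 and Mrpl46, the partner is itself a gene of the family: their starts are separated by 41 bases on chromosome 7 (chr7:78783090-78783130). The bases between them, shown on the strand of Mrps11 because they separate a small subunit from a large subunit gene, hold an SP1 match in capitals.
Mrps11 and Mrpl46: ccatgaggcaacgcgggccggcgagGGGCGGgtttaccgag
Mrps11 had 2.08 and 1.79 RPKM in WT steady state, 3.00 and 2.07 RPKM at 5 min and 7.58 and 6.46 RPKM at 10 min. Mrpl46 had 1.79 and 1.89 RPKM, then 5.11 and 4.06 RPKM, then 8.82 and 7.95 RPKM. The genes overlapped in WT in steady state, both had higher values at 10 min, and both WT libraries of Mrpl46 lay above those of Mrps11 in each recovery. Between genotypes the log2 difference at 10 min was 0.04 ± 0.10 (SE) for Mrpl46 and 0.02 ± 0.12 for Mrps11. These genes were chosen for their positions after the values were seen. In all, 21 genes of the family overlap a gene on the other strand and 6 overlap another annotation on their own strand. The libraries were directional and the study's methods separate reads by strand before the browser tracks, but whether the counting used strand is not given in the sources used here. Reads in such overlaps may therefore be shared.

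Differences between genotypes went along with gene length. In steady state, both null libraries were above both WT libraries for 50% of 24 genes under 5 kb, 33.3% of 30 genes of 5 to 10 kb, 8.33% of 12 genes of 10 to 20 kb and 0% of 10 genes over 20 kb, where 40% were below. Over all genes the same classes had 37.8%, 48.2%, 35.1% and 24.2% above, and 34.2% of the longest were below. The genes of the family thus lay above the share of all genes in the shortest class and under it in the other 3. The shortest class holds the chromosome 14 genes Mrpl52, Mrps16 and Mrpl57, which were all above in steady state. Their part in its share was not tested. At 10 min 68% of 25, 40% of 30, 23.1% of 13 and 0% of 10 genes were above, with 40% of the longest below. All genes had 45.1%, 55.0%, 34.3% and 21.7% above and 35.3% of the longest below. At 5 min the shares above were 17.4%, 17.2%, 7.69% and 11.1%, against 17.5%, 17.1%, 13.7% and 14.7% of all genes. Spearman's correlation of the log2 ratio with span was -0.41, -0.33 and -0.67 across the genes tested in steady state, at 5 min and at 10 min, against -0.29, -0.07 and -0.36 across all genes. GC content moved as well: its correlation with the log2 ratio was 0.42, 0.07 and 0.54 across the genes of the family and 0.52, 0.05 and 0.45 across all genes. All points of a condition come from the same 4 libraries, and the parts of length and GC content were not tested.

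**Figure D5:**
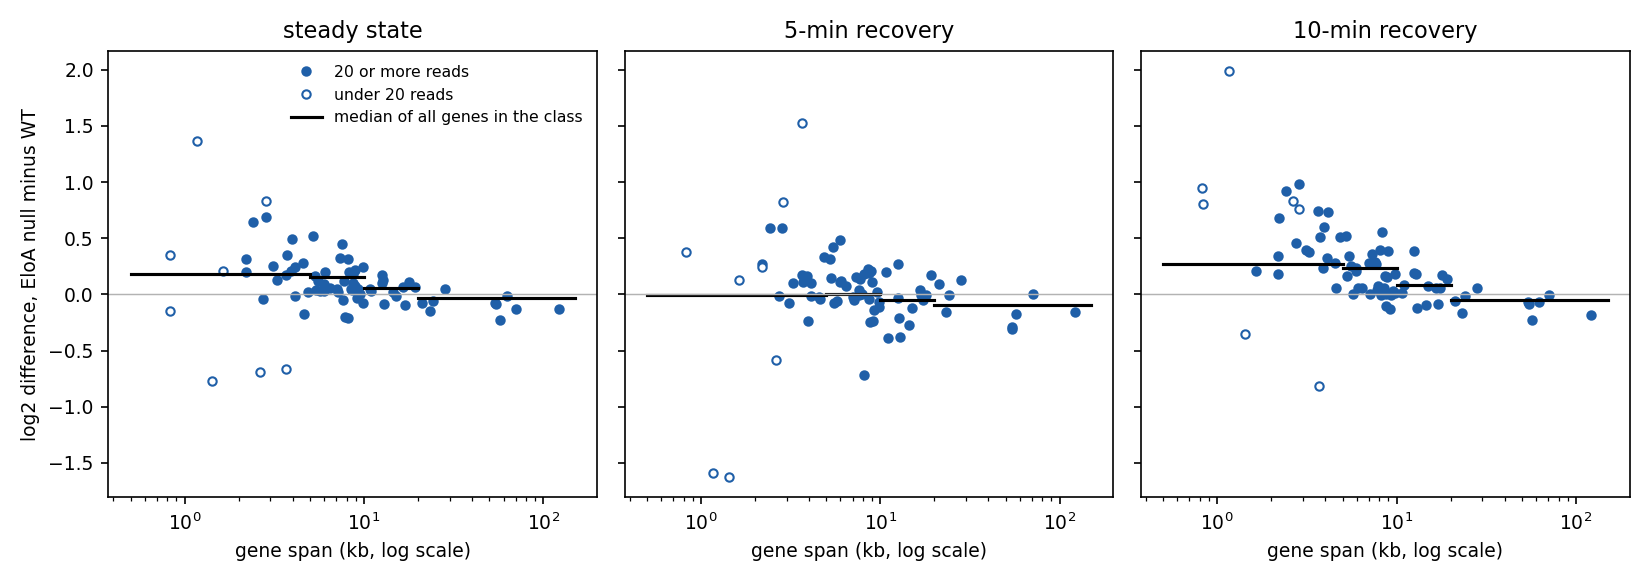
Log2 difference between genotypes, EloA null minus WT, against gene span (kb, log scale) in the 3 conditions, with 1 point per gene, open for genes under a mean of 20 reads, and black lines for the median of all genes in each length class. Genes over 20 kb lie at or below 0 in steady state and at 10 min with 1 exception each, and the shortest genes scatter most.

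The largest fold differences belonged to genes with few counted reads. Mrps34, a small subunit protein of the mitochondrial ribosome alone with a span of 1170 bases, had 2 and 5 reads in WT and 7 and 12 reads in the null libraries in steady state. Summed over libraries and scaled by library size this was a ratio of 2.75, with an exact 95% interval for counting error of 1.11 to 7.75. At 5 min it had 1 and 3 reads against 0 and 2, a ratio of 0.386 with an interval of 0.0349 to 2.69. At 10 min it had 1 and 1 against 7 and 6, a ratio of 5.48 with an interval of 1.24 to 50.0. The value was thus higher in 2 conditions and lower in the other one, where its interval includes 1.

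Mrpl41, a large subunit protein of the mitochondrial ribosome alone, had 10 and 10 reads in WT and 5 and 7 reads in the null libraries in steady state, a ratio of 0.609 (0.271 to 1.31). At 10 min it had 9 and 7 against 13 and 22 reads, a ratio of 1.84 (0.994 to 3.57). Mrpl43 had 5 and 7 against 2 and 5 reads in steady state, a ratio of 0.592 (0.197 to 1.63). Mrpl53, the shortest gene of the family with 825 bases, had 11 and 12 reads against 26 and 27 at 10 min, a ratio of 1.94 (1.17 to 3.32), but 12 and 9 against 6 and 14 in steady state (0.497 to 1.87). Mrpl57 had 2 and 2 against 3 and 5 reads in steady state, with an interval of 0.543 to 9.21. Mrpl36 had 0 and 2 against 1 and 6 reads at 5 min, with an interval of 0.514 to 26.7. Mrpl34 had 4 reads in WT and 6 in the null libraries in steady state (0.361 to 7.33). Of these genes, Mrps34 in steady state and at 10 min and Mrpl53 at 10 min had intervals that lie above 1. The genes were named partly for their ratios in these same data. The intervals are not adjusted for their number and cover counting error only.

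Genes were also grouped by name alone, and the place of each protein in the ribosome was not checked. Those named Mrpl had a median log2 ratio of 0.05, 0.02 and 0.24 in steady state, at 5 min and at 10 min. Those named Mrps had 0.06, -0.01 and 0.06. At 10 min, 25 of 49 Mrpl genes and 7 of 29 Mrps genes had both null libraries above both WT libraries. These were 51% and 24.1%, with a background of 33.5%. With libraries centred on their medians it was 22 and 6, or 44.9% and 20.7% against 25.8%, and the medians were 0.14 and -0.04. The difference between the groups of names was not tested. Genes with a bacterial counterpart had medians of 0.09, 0.03 and 0.19, and those without had 0.05, -0.01 and 0.07.

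Other genes of mitochondrial gene expression were transcribed at like levels. Assembly factors and ribosomal proteins under other names had a WT median of 1.86 RPKM over 22 genes in steady state, with 0 passing the limma test, 11 above and 2 below without overlap (backgrounds of 32% and 21.4%), and a median log2 ratio of 0.10. At 10 min 10 were above and 2 below (45.5% and 9.09%, with backgrounds of 33.5% and 21.8%), with a median of 0.17. With libraries centred on their medians 8 were above and 3 below in steady state and at 10 min (36.4% and 13.6%). Backgrounds were then 26.3% and 30.4% in steady state and 25.8% and 31.3% at 10 min. Translation factors had a median of 1.77 RPKM over 12 genes, with 5 above and 2 below in steady state and a median of 0.10. Genes of mitochondrial transcription and messenger RNA binding had 2.81 RPKM over 9 genes, with 1 above and 3 below and a median of -0.07. In the cytosolic ribosome, 46 of 85 genes tested were above and 1 was below in steady state (54.1% and 1.18%), 5 were above and 6 below at 5 min (5.88% and 7.06%, with backgrounds of 15.4% and 25%), and 52 were above and 1 below at 10 min (61.2% and 1.18%, with backgrounds of 33.5% and 21.8%). The median log2 ratios were 0.17, -0.05 and 0.18, with 0 genes past the limma test. With libraries centred on their medians the counts were 30 and 3, 8 and 2, and 37 and 1. These were 35.3% and 3.53%, 9.41% and 2.35%, and 43.5% and 1.18%. Backgrounds with that scaling were 26.3% and 30.4%, 21.3% and 20.3%, and 25.8% and 31.3%. The medians were then 0.11, 0.01 and 0.08, so that the direction at 5 min depended on the scaling.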

How the data were processed

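Bru-seq of 12 samples was used, with 16 CUT&RUN-seq and ChIP-seq samples of the series not analysed here. The authors aligned reads with bowtie2 2.3.4.3, counted reads in RefSeq genes with featureCounts 1.6.1 and normalized with edgeR, and the deposited values are RPKM in 1 table per condition, with replicates kept apart. Their mean columns were not used. Symbols were looked up in RefSeq for GRCm38.p6 directly (24418) or by older symbol (423). Another 26 were symbols turned into dates and were left unmatched, as were 117 others.

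Reads per gene were recovered from the steps of the RPKM values and used for depth, as a filter and for counting intervals, not for a count test. The methods describe counts over whole genes, but the counted length that gave whole reads was the summed introns with an exon base on each side, so the RPKM values appear to be intronic. With it between 97.4% and 98.0% of genes with introns and under 500 reads came out whole in each library, against 19.1% to 21.5% with the full span. Genotypes were compared with limma (version 3.58.1, R 4.3.3) and its intensity trend, using log2(RPKM + 0.1) of all genes with a mean above 0.5 RPKM in either genotype, within each table, with Benjamini-Hochberg adjustment at 0.05. Scripts were tested on simulated data. Fold limits were 1.5 on mean RPKM. The study calls its replicates independent experiments, and whether they came from separate cultures is not stated, so p-values measure the spread between these libraries. Genes named were the 5 highest and lowest by WT level, the 5 largest and smallest ratios of mean RPKM in each condition, all past 1.5-fold without overlap, the 3 longest and shortest, those on chromosome 14, the S18 paralogs, Mrpl12, Mrps12 and Mrpl58. The genes, lists and tests were chosen with earlier results of these data known. Alternatives changed the pseudocount, filters, scaling, GC correction, variance estimate, block and libraries. A test of the difference between conditions was added after seeing the data.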

Additional observations from a re-analysis of the deposited data

Results flagged for a closer look

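For 2 genes the direction of the difference between genotypes was opposite in 2 conditions, with no overlap between the libraries in either. Mrpl41 had a log2 difference of -0.69 in steady state and 0.83 at 10 min. In a limma fit of all 12 libraries, chosen after seeing the data, the difference between these conditions had an unadjusted p of 0.00698 and an adjusted p of 1.00 over 11347 genes, and the values rested on 5 to 22 reads per library. Mrpl10, a large subunit stalk protein, had -0.0512 in steady state and 0.27 at 10 min, with an unadjusted p of 0.0878 and an adjusted p of 1.00. No gene of the family passed that test of the difference in either recovery, while 15 of all genes did at 5 min and 1 at 10 min.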

How the results depend on the processing

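For the genes of the family, 0 passed the adjusted p in every condition under the pseudocount of 1, the RPKM filters, the robust variance, the centred libraries, the GC correction and the replicate block, and without any library in turn; with at least 20 reads on average it was 5, 0 and 3 and in 1 fit of all 12 libraries 0, 1 and 2. Counts over all genes depended more on the choice. Instead of 0 they were 637, 111 and 413 in steady state, at 5 min and at 10 min with at least 20 reads, 132, 532 and 264 in 1 fit of 12 libraries, and 81, 29 and 26 with robust variance, whereas the replicate block gave 128 at 5 min and 0 in the others. At 10 min they were 5 with a pseudocount of 1, 12 with centred libraries and 11 with the GC trend removed. What links libraries of the same replicate number across genotypes is not stated in the sources used here, and pairing was not taken as design. The replicate differences of the genotypes had weak positive correlations of 0.101, 0.119 and 0.103. Leaving out 1 library left an arm with 1 library, assumed to vary like the other arm, which alone gave the spread, and so gave 0 to 90 calls at 5 min (61 without WT replicate 1, 64 without WT replicate 2, 90 without EloA null replicate 1) and 0 to 81 at 10 min (49 without WT replicate 2, 70 and 81 without EloA null replicates 1 and 2). Genes of the family without overlap numbered 49 to 61, 38 to 54 and 49 to 69 then, a test with fewer libraries. Without WT replicate 1, 38 of 76 were above and 12 below in steady state, against 5521 and 3196 of all 11343 genes. At 5 min it was 33 and 8 of 73, against 3072 and 2884 of 8825. At 10 min it was 56 and 13 of 77, against 5462 and 3135 of 10227. Genes of the family past 1.5-fold numbered 5 to 9, 4 to 12 and 9 to 15. Of all genes, 7.34% to 9.45%, 6.23% to 8.36% and 8.04% to 14.3% were then higher. Lower were 2.35% to 3.01%, 6.1% to 12.1% and 2.9% to 4.76%. With at least 20 reads, 2, 3 and 7 genes of the family were past 1.5-fold. The backgrounds were 5.29%, 3.41% and 7.31% higher and 0.787%, 3.76% and 1.46% lower. With RPKM over 1 it was 5 genes at 5 min, with backgrounds of 4.69% higher and 5.05% lower. The median log2 difference was 0.0088 to 0.123 in steady state and 0.0743 to 0.225 at 10 min without each library, 0.0723 with centred libraries and 0.0374 with the GC trend removed at 10 min. The ratio to steady state was 1.60 (WT) and 1.69 (EloA null) at 5 min and 1.85 (WT) at 10 min with tables centred on all genes. Without each library it was 0.924 to 1.02 (WT) and 0.816 to 0.973 (EloA null) at 5 min and 1.81 to 2.02 (WT) at 10 min. Depth limits the short genes, of which 8, 8 and 7 had under 20 reads. The causes of these shifts were not tested.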
